A study of Mus musculus with 2 samples.

Results

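The genes of neural progenitors and radial glia, Fabp7, Slc1a3, Atp1b2, Rfx4, Pax6, Sox1, Sox3, Hes5, Nes and Celsr2, were followed in a study that returned primed mouse epiblast cells to a naive state. They were chosen by their symbols, with earlier results of these data known. All 10 were found among the 33963 genes of the deposited count table. Single-cell RNA-seq had been performed on 5 populations, each tagged with an oligonucleotide and pooled in 1 cDNA library. Naive cells were mouse embryonic stem cells of the Rex1-GFP line, without reversion treatment. The paper describes this line as kept in 2iL, a medium of kinase inhibitors and LIF (leukemia inhibitory factor) that keeps mouse stem cells naive. Primed cells were mouse epiblast stem cells of the Oct4GIP line, kept in FGF2 and Activin A. For this line the paper describes fibronectin-coated plates, and feeders of mouse embryonic fibroblasts (MEF) from 1 day before treatment. The d8 and d16 cells were Oct4GIP cells given AICAR, an activator of the kinase AMPK, together with LIF for 8 or 16 days. The d16+10p cells were d16 cells passaged 10 times in 2iL, as used for the naive line. All carry 129/Ola as the strain label, no untreated culture of the same age was part of the pool, and feeder cells can be present.

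Radial glia are the elongated progenitor cells that line the ventricles of the developing nervous system, and they give rise to neurons and later to astrocytes and ependymal cells. SOX transcription factors keep neural progenitors undifferentiated, and signals through Notch receptors act on genes of the HES family, which repress the onset of neuron formation. The epiblast forms neural tissue readily when signals of the Nodal and BMP families are low, and several early neural genes are already transcribed in primed cells. The 10 genes cover different roles. Fabp7 (brain lipid binding protein) carries fatty acids in radial glia, Slc1a3 (GLAST) is a glutamate transporter of radial glia and astrocytes, and Atp1b2 is a beta subunit of the sodium pump found in glia. Rfx4, Pax6, Sox1 and Sox3 encode transcription factors, Hes5 is a Notch effector, Nes (nestin) is an intermediate filament protein and Celsr2 is a cadherin of the planar polarity pathway.

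The sequences upstream of 3 of the genes are shown for contrast, because Fabp7 and Slc1a3 shared their highest cluster whereas Hes5 did not. They were taken from the RefSeq promoters of GRCm38.p6, in which 8 of the 10 genes had an entry, and each runs from 250 to 51 bases before the start, 5′ to 3′ on the strand of the gene. Capitals mark the core of the site of RBPJ, the DNA-binding partner of Notch (TGGGAA), and the core of SOX sites (ACAAAG or ACAATG), searched on both strands. The windows are chr10:57784673-57784872 (plus strand) for Fabp7, chr15:8710858-8711057 (minus strand) for Slc1a3 and chr4:154960673-154960872 (plus strand) for Hes5.
Fabp7: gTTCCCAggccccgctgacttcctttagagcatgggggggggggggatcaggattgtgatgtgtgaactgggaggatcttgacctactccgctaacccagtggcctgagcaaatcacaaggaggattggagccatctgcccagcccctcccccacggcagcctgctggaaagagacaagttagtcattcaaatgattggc
Slc1a3: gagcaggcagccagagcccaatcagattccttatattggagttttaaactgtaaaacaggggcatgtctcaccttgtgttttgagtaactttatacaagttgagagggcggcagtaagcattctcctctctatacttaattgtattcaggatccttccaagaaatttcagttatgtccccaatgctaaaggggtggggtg
Hes5: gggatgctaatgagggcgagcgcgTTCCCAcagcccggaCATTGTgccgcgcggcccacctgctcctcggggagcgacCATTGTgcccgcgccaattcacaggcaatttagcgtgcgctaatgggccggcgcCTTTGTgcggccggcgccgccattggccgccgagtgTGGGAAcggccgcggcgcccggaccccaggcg
The Hes5 window held the RBPJ core at 226 and 82 bases before the start, and 3 SOX cores. Fabp7 held 1 RBPJ core, at 249 bases before the start, and Slc1a3 held neither motif. Among all 32841 promoter windows of the same length, 17.9% held the RBPJ core and 21.2% a SOX core. The octamer of POU factors (ATGCAAAT) was in none of the 8 windows and in 1.32% of all. These matches are letters in a window, not binding sites.

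The table held 307121033 reads in 17720 cells, with median depths of 10185 to 21551 reads per cell by population. Values are reads rather than molecules, so all intervals below (95%, exact) cover counting error only. Each population was 1 sample, so differences have no replicate check, and no p-value is given. Tags did not always match the clusters of the cells. Of the 1826 cells with the primed tag, 77.1% were found in a cluster made up mainly of a different tag. The same held for 35.8% of naive cells, 2.00% of d8 cells, 11.1% of d16 cells and 23.1% of d16+10p cells. Of the primed-tagged cells, 433 lay in cluster 2, named primed epiblast-like by its markers, and 240 in the fibroblast-like cluster 6. The paper regarded the Oct4-negative cells of the primed sample as MEF feeders. The parts of feeders and of wrong tags were not tested. The labels state 500 primed cells. Values for primed cells are therefore also given for cluster 12 alone, where 419 of 429 cells carried the primed tag, and values for naive cells for cluster 11 (514 of 535 cells).

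Of the 10 genes, 6 had their highest level at d16. In 5 of these, the genes of lipid binding, transport and cell adhesion together with Rfx4, d16 stood far above the other populations. The level is the summed reads of a gene as counts per 1000000 reads of the population (CPM). Fabp7 measured 46.1 CPM in naive, 98.7 in primed, 36.5 at d8, 327 at d16 and 42.5 in d16+10p cells. Slc1a3 measured 56, 94.8, 55.7, 352 and 51.6 CPM in the same order. Atp1b2 measured 26.8, 28.9, 21.4, 143 and 25.7 CPM. In each of these genes the d16 interval lay above all others, and d8 was the lowest or close to the lowest. Rfx4, a factor of the RFX family that acts in neural tube and cilia formation, measured 12.4, 17.7, 8.31, 73.0 and 12.4 CPM. Celsr2 measured 29.5, 39.2, 23.1, 141 and 30.3 CPM. The intervals of naive and d16+10p cells overlapped for these 5 genes, for example 43.0 to 49.4 CPM against 40.0 to 45.0 CPM for Fabp7.

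The SOX genes and Hes5 followed another order, with the highest level in primed cells. Sox1, a SOX factor that marks the earliest neural plate, measured 5.68 CPM in naive, 14.4 in primed, 5.59 at d8, 6.22 at d16 and 2.94 in d16+10p cells. Sox3, its close relative, measured 1.51, 9.79, 2.20, 3.37 and 2.48 CPM. Hes5 measured 2.55, 12.3, 1.81, 5.84 and 1.94 CPM. The interval of primed cells lay above those of all other populations for each of these 3 genes (8.67 to 11 CPM for Sox3), whereas d8 and naive overlapped for all 3. Pax6, a factor of the eye, forebrain and spinal cord, measured 4.64, 5.45, 3.06, 8.51 and 8.31 CPM and its intervals overlapped between d16 and d16+10p cells. Nes measured 73.1, 143, 154, 126 and 68.5 CPM, and was the only member that was highest at d8. Pax6 overlaps the antisense gene Pax6os1 and Sox1 lies within Sox1ot, so reads of these pairs may have been shared out between the symbols.

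**Figure D1:**
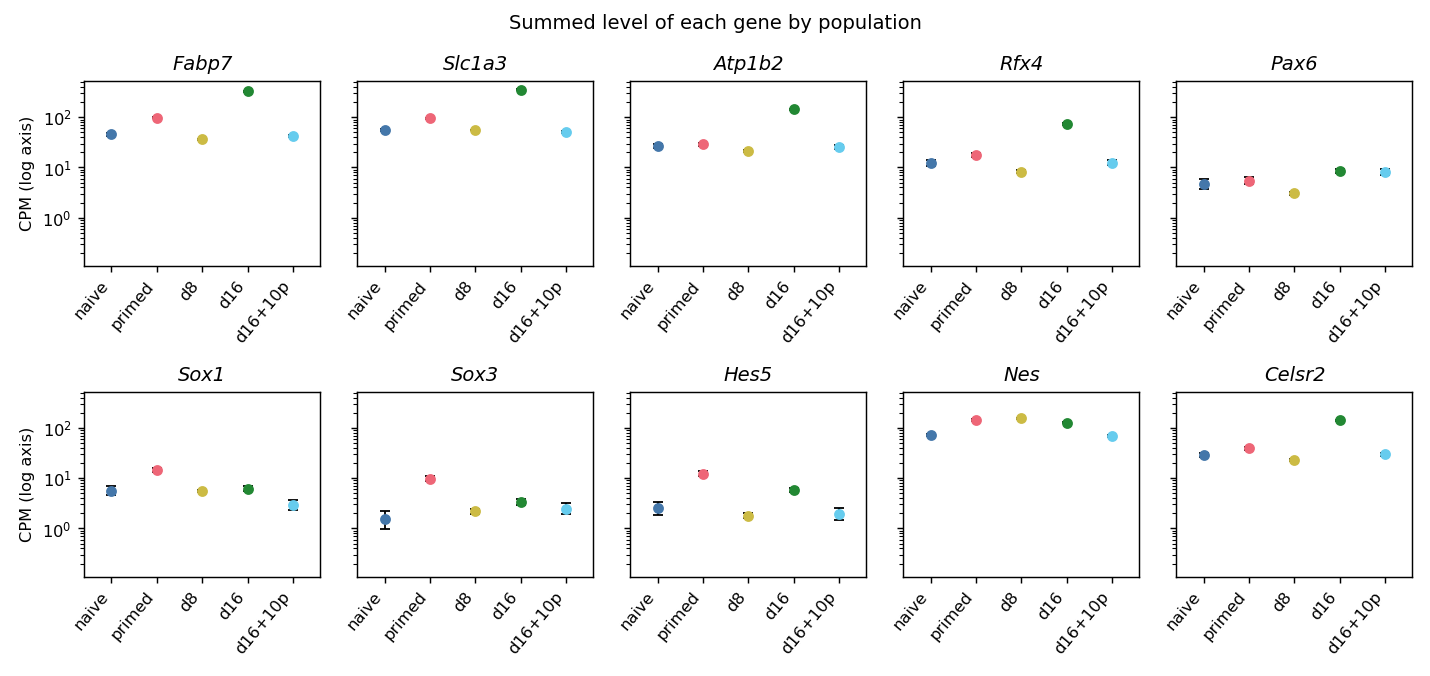
Level of each of the 10 genes in the 5 populations, in CPM on a log axis. Points are the summed level of 1 tagged sample and bars the exact 95% Poisson interval, which is often smaller than the point. Fabp7, Slc1a3, Atp1b2, Rfx4 and Celsr2 peak at d16, Sox1, Sox3 and Hes5 in primed cells.

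The step from d8 to d16 carried most of the difference. A gene was compared when it reached 5 CPM in either population, and called when it differed at least 2-fold. Of the 9 members compared, 7 were at least 2-fold higher at d16, against 9.44% of the 13268 genes compared. The members were chosen with earlier results of these data known, so this share is not an independent background. On the log2 scale with a pseudocount of 1 CPM, the differences were 3.13 (3.09 to 3.17) for Fabp7, 2.99 (2.91 to 3.07) for Rfx4 and 2.69 (2.63 to 2.74) for Atp1b2. Slc1a3 differed by 2.64 (2.60 to 2.67), Celsr2 by 2.56 (2.51 to 2.61), Hes5 by 1.28 (1.11 to 1.45) and Pax6 by 1.23 (1.08 to 1.38). Sox1 differed by 0.13 (-0.02 to 0.28) and Nes by -0.29 (-0.33 to -0.25), both short of 2-fold, and Sox3 (0.45) was below the level for comparison. The calls of Hes5 and Pax6 rest on low levels, and with a pseudocount of 10 CPM they were 0.42 and 0.50, which leaves 5 of 9. The median over all 10 members was 1.92, against 0.05 over all genes compared. In d16+10p cells 6 of 9 members were at least 2-fold lower than at d16, against 11.6% of all genes. These were Fabp7 (-2.92), Slc1a3 (-2.75), Rfx4 (-2.47), Atp1b2 (-2.44), Celsr2 (-2.18) and Hes5 (-1.22), whereas Pax6 differed by -0.03 (-0.24 to 0.18). Against naive cells, 0 of 8 members compared were 2-fold higher or lower in d16+10p cells, where 0.923% of all genes were higher and 0.835% lower. No replicate was available, so the last count is not a sign that the populations are alike.

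Before treatment, 4 of the 10 members were at least 2-fold higher in primed than in naive cells, against 3.87% of all genes. These were Sox3 (2.11), Hes5 (1.91), Sox1 (1.21) and Fabp7 (1.08). In the comparison of cluster 12 with cluster 11, using the cells of the own tag only, Hes5 measured 22.5 against 1.79 CPM (log2 difference 3.08, 2.63 to 3.50). Sox3 measured 12.8 against 1.32 CPM (2.57, 2.08 to 3.02), Sox1 13.2 against 3.66 CPM (1.61, 1.2 to 2.02) and Nes 126 against 59.0 CPM (1.08, 0.95 to 1.21). These 4 of 9 compared members passed 2-fold there, against 5.30% of all genes, and Fabp7 did not (62.2 against 31.4 CPM, 0.96). By d8, 5 of 10 members were at least 2-fold lower than in primed cells, against 3.22% of all genes: Hes5 (-2.25), Sox3 (-1.76), Fabp7 (-1.41), Sox1 (-1.23) and, just past the limit, Rfx4 (8.31 against 17.7 CPM). The primed cells of cluster 12 had Fabp7 at 62.2 and Rfx4 at 15.7 CPM, less than 2-fold above d8, so these 2 calls did not hold against that cluster. Nes was at 143 and 154 CPM in primed and d8 cells. The primed population enters both comparisons, and primed and naive cells also differ in line and medium.

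All cells were then clustered without the 10 genes, so that the members could not form the clusters. Cluster 3 was singled out because it held the most d8 and d16 cells with a read of at least 3 members. High levels of the members there are therefore partly set by this choice. Cluster 3 comprised 1830 cells, of which 1642 (89.7%) carried the d16 tag. It held 38.1% (36.6 to 39.5) of all d16 cells against 0.488% (0.359 to 0.649) of the d8 cells. The share was 2.87% in naive, 5.75% in primed and 1.13% in d16+10p cells. Of 8 neural progenitor markers that are not members, 6 were raised there at least 3-fold over the median cluster, so it is called neural progenitor-like. Its leading genes were Efnb3, Hepacam2, Ildr2, Rspo2, Sulf1, Ecrg4, Tacr1, Gfap, Cldn2 and Pcp4l1. They include the astrocyte filament gene Gfap and Cldn2, a tight junction gene of the choroid plexus and other epithelia, so the name says only that these markers were raised.

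In cluster 3, Fabp7 was at 832 CPM (819 to 845), against 24.8 to 218 CPM in the other clusters with at least 50 cells. Slc1a3 was at 777 CPM against 42.1 to 298, Atp1b2 at 310 CPM against 18.8 to 168, Rfx4 at 177 CPM against 8.22 to 35.3 and Celsr2 at 335 CPM against 20.9 to 169. These 5 genes were 11.5- to 15.2-fold over the median of the other clusters. The remaining members had their highest level elsewhere. Pax6 was highest in the neuron-like cluster 13 (50.2 CPM, 272 cells), with cluster 3 next at 16.5 CPM among the clusters of at least 50 cells and cluster 17 (47 cells) at 21.1 CPM (11.8 to 34.8). Sox1 was highest in cluster 2 (23.9 CPM), a cluster led by Lefty1, Fgf15, Lefty2 and Fgf8 in which d8 cells made up 69.8%, and reached 13.3 CPM in cluster 3. Hes5 and Sox3 were highest in the primed cluster 12, at 22.8 and 12.6 CPM, against 14.8 and 2.92 CPM in cluster 3. Nes was highest in the smooth muscle-like cluster 4 (296 CPM) and the epithelial-like cluster 1 (228 CPM), both mainly of d8 cells, and measured 205 CPM in cluster 3. Nestin is known also from muscle and from other dividing cells.

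**Figure D2:**
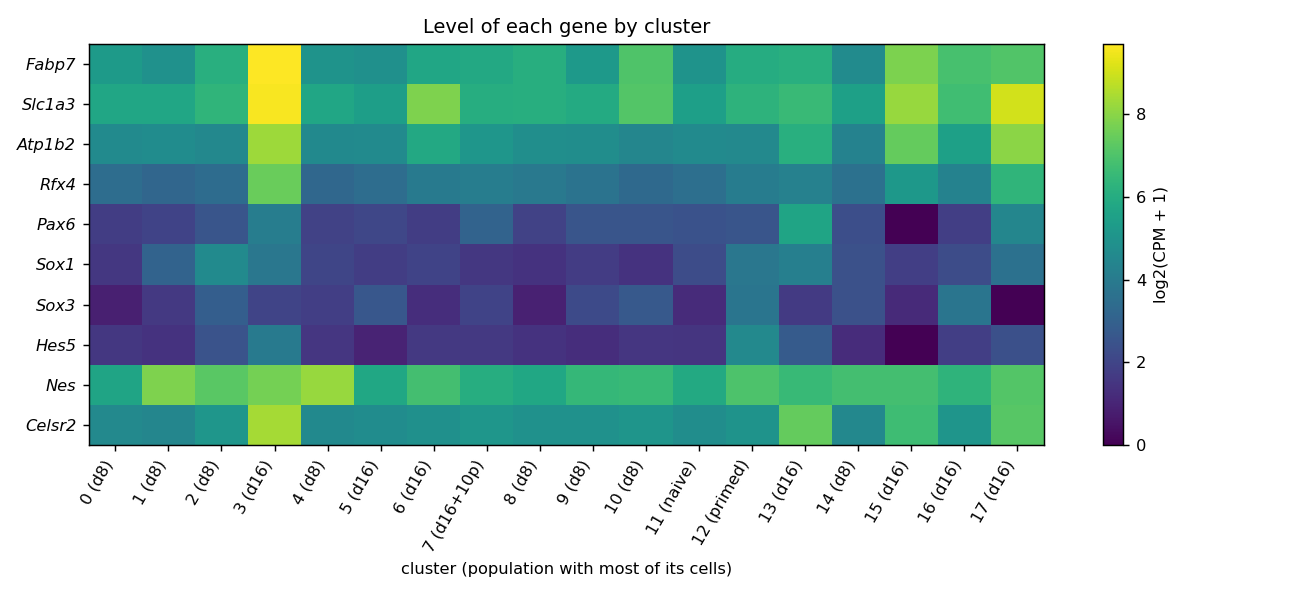
Level of the 10 genes as log2(CPM + 1) in the 18 clusters, which were made without these genes; the population with most cells of a cluster is given in brackets. Cluster 3 is highest for Fabp7, Slc1a3, Atp1b2, Rfx4 and Celsr2, cluster 13 for Pax6, cluster 2 for Sox1, cluster 12 for Sox3 and Hes5, and cluster 4 for Nes.

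Smaller d16 clusters carried some of the genes but not others. Cluster 17 (47 cells) was led by Foxj1, Tmem212, Ccdc153 and Cfap genes, which serve motile cilia. It had Slc1a3 at 521 CPM, Atp1b2 at 256 CPM, Celsr2 at 145 CPM and Rfx4 at 80.3 CPM, with Fabp7 at 132 CPM. Cluster 15 (78 cells), led by Hp, Fgg and Pomc, had Fabp7 at 218 and Slc1a3 at 298 CPM. The fibroblast-like cluster 6, led by Col3a1, had Slc1a3 at 224 CPM while Fabp7 stayed at 52.1 and Celsr2 at 28.2 CPM. In the neuron-like cluster 13, Celsr2 was at 169 CPM and Fabp7 at 69.1 CPM. Cluster 10, mostly of d8 cells and led by T and Shh, had Fabp7 at 131 and Slc1a3 at 135 CPM, with Rfx4 at 8.97 and Atp1b2 at 20.7 CPM. Slc1a3 exceeded 200 CPM in clusters 3, 6, 15 and 17, whereas Rfx4 stayed between 8.22 and 18.8 CPM in all clusters but 3, 15 and 17.

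Background was read from the macrophage-like cluster 8 (942 cells), which is no neural cell type, and it differed between the tags. The 821 cells with the d8 tag had Fabp7 at 46.0 CPM, Slc1a3 at 47.3 (44.0 to 50.8), Celsr2 at 23.3, Atp1b2 at 18.9 and Rfx4 at 9.61 CPM. The 40 cells with the d16 tag had 421 CPM of Fabp7, 431 of Slc1a3, 130 of Celsr2, 162 of Atp1b2 and 81.3 of Rfx4. The d8 level of Slc1a3 lay above that of the d8-tagged macrophage-like cells, that of Fabp7 below it, and the intervals of the other 3 genes overlapped. None of the 5 genes was lower in the d16-tagged macrophage-like cells than in the whole d16 population beyond counting error. The part of doublets or free RNA in the 40 cells was not tested. After thinning to 5000 reads a cell, Fabp7 was found in 14.6% (12.1 to 17.3) of the d8-tagged and in 66.7% (49.8 to 80.9) of the d16-tagged macrophage-like cells, against 12.6% of all d8 and 36% of all d16 cells. The share was 13.1% in naive cells, 22.8% in primed cells and 11.2% in the d16+10p population, and 17.5% (15 to 20.3) in cluster 8 over all tags. The median depths before thinning were 17394 reads in cluster 8 and 10185 reads at d16. Sox3 and Hes5 were in 0.240% and 0.720% of the macrophage-like cells, against 5.73% (3.70 to 8.40) and 8.59% (6.09 to 11.7) of the cells of cluster 12.

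Within the d16 population, the members were compared between cluster 3 and the remaining 2673 cells. All 9 members compared were at least 2-fold higher in cluster 3, against 8.52% of all genes. Because the members chose this cluster, the count describes it and is no independent support. Fabp7 was at 849 against 89.9 CPM (log2 difference 3.22, 3.17 to 3.28), Rfx4 at 182 against 23.5 CPM (2.90), Celsr2 at 346 against 47.7 CPM (2.83), Slc1a3 at 808 against 145 CPM (2.47) and Atp1b2 at 324 against 61.3 CPM (2.38). Hes5 was at 14.0 against 2.11 CPM (2.27), Pax6 at 16.2 against 5.03 CPM (1.51), Sox1 at 11.7 against 3.73 CPM (1.42) and Nes at 207 against 89.0 CPM (1.21). Sox3, below the level for comparison, was at 2.41 against 3.81 CPM. Cluster 3 supplied 81.1% of the Fabp7 reads of d16, 77.9% of Rfx4, 76.7% of Celsr2, 75.2% of Hes5, 71.7% of Slc1a3 and 70.6% of Atp1b2, but 51.4% of Nes and 22.3% of Sox3.

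Without cluster 3, a setting chosen after the data were seen, d16 cells still exceeded d8 cells by 1.51 for Atp1b2, 1.45 for Rfx4, 1.39 for Slc1a3, 1.33 for Fabp7 and 1.05 for Celsr2 on the log2 scale. Pax6 (0.59) and Hes5 (0.17) were short of 2-fold, and Sox1 turned to -0.47. The d16 cells outside cluster 3 were not alike in this. Those of the pluripotent cluster 5 (1196 cells) had Fabp7 at 28.8 CPM and Slc1a3 at 41.5 CPM (38.7 to 44.6). In the d8-tagged macrophage-like cells they were at 46.0 and 47.3 CPM, and the intervals overlapped for Slc1a3. In cluster 0, a fibroblast-like cluster, 65 d16 cells had Fabp7 at 249 CPM while 2165 d8 cells had 31.6 CPM. In cluster 2, 83 d16 cells had 123 CPM and 1445 d8 cells 33.0 CPM. Across the clusters led by other tags (0, 1, 2, 4, 7, 8, 9 and 10), the d16 cells had Fabp7 at 105 to 421 CPM. In the d16-led clusters other than cluster 3, they had 28.8 CPM (cluster 5) to 242 CPM (cluster 15). How far the differences that remained without cluster 3 rest on d16 cells in clusters of other tags was not tested. The 732 d16 cells of the fibroblast-like cluster 6 had Slc1a3 at 232 CPM (220 to 243) and Fabp7 at 56.6 CPM. They supplied 8.25% of the Slc1a3 reads of d16. The 64 d8 cells of that cluster had Slc1a3 at 211 CPM (182 to 245) and Fabp7 at 27.9 CPM.

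Cells of the other tags in cluster 3 carried the genes too. The 105 cells with the primed tag had Fabp7 at 662 CPM and Slc1a3 at 470 CPM, and the 47 with the d8 tag 515 and 467 CPM. The 23 cells with the naive tag had 922 and 341 CPM, and the 13 with the d16+10p tag 776 and 446 CPM. Those 23 cells supplied 24.2% of the Fabp7 reads of the naive population. Outside cluster 3, primed cells had Fabp7 at 80.7 CPM, Rfx4 at 13.3 CPM and Hes5 at 12.2 CPM, so that the primed level of Hes5 did not rest on the 105 cells. The part of wrongly assigned tags among the cluster 3 cells of the naive, primed, d8 and d16+10p tags was not tested. Single d16 cells of cluster 3 varied widely. For Fabp7, the per-cell level ran from 0 CPM to a median of 379 and a highest value of 11318 CPM, and 72.7% of the cells had a read. For Slc1a3 the median was 585 and the highest value 6842 CPM, and 86.1% of cells had a read. Pax6, Sox1 and Hes5 were detected in 7.98%, 6.76% and 7.00% of these cells.

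The number of members per cell was counted after thinning each cell to 5000 reads, which left 8872 of 9627 d8 and 3711 of 4315 d16 cells. At d16, 39.9% (38.3 to 41.5) of the cells had a read of at least 3 of the 10 genes, and 26.6% (25.2 to 28.0) of at least 4. At d8 the shares were 6.63% (6.12 to 7.17) and 1.40% (1.16 to 1.66). The share with at least 3 was 6.68% in naive, 15.8% in primed and 6.56% in d16+10p cells, and 6.60% (5.01 to 8.51) in the macrophage-like cluster. By tag, it was 4.05% (2.75 to 5.74) of 740 d8 cells and 53.8% (37.2 to 69.9) of 39 d16 cells of that cluster, so that the d8 share lay above its macrophage-like cells and the d16 share did not. This class is a range and not a cell type: 610 d16 cells had 2 members, 495 had 3, 454 had 4 and 366 had 5, and the highest number was 8, in 1 cell. In cluster 3, 85.1% (83.0 to 86.9) of the d16 cells had at least 3 members, against 13.9% (12.5 to 15.3) of the d16 cells outside it, and this share was above that of the d16-tagged macrophage-like cells. Among d16 cells, cluster 17 followed with 77.8% (60.8 to 89.9) of 36 cells. Next came clusters 8 (53.8%), 7 (49.3%), 0 (46.6%), 4 (38.3%) and 15 (36.2%), and cluster 13 had 22.2%. Over all tags, the share was 83.3% in cluster 3 and 68.3% (51.9 to 81.9) of 41 cells in cluster 17. It was 31.0% of 58 cells in cluster 15, 19.5% in cluster 13 and 15.5% in cluster 12.

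**Figure D3:**
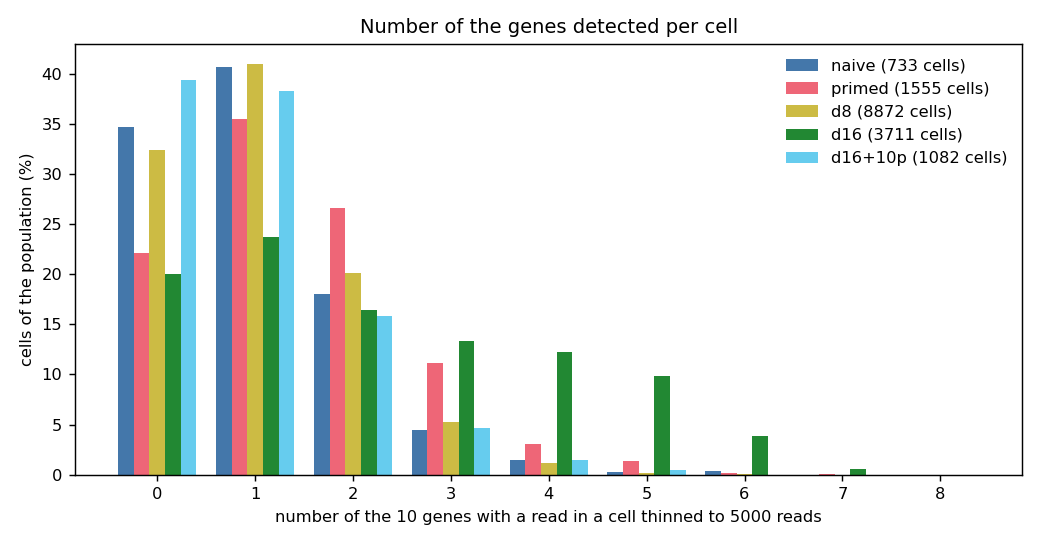
Share of the cells of each population (vertical axis, %) by the number of the 10 genes with a read after thinning to 5000 reads (horizontal axis). The d16 cells extend to 4, 5 and 6 genes (12.2%, 9.86% and 3.83% of cells), where d8 cells are rare (1.13%, 0.225% and 0.0338%).

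Of the 2069 such cells of d8 and d16, 1183 (57.2%, 55.0 to 59.3) were in cluster 3, the cluster chosen for holding the most of them. At d16, 1155 of 1481 such cells (78.0%, 75.8 to 80.1) were in cluster 3, which held 36.6% of the thinned d16 cells. At d8, where 588 cells had at least 3 members, 28 (4.76%, 3.19 to 6.81) were in cluster 3, which held 0.417% of the thinned d8 cells. Clusters 1, 4 and 2 held 20.7%, 19.6% and 19.4% of the 588 cells, against 21.6%, 16.7% and 14.5% of all thinned d8 cells.

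Pairs of genes were compared with the number of cells expected if both were found independently. Of 39 pairs with at least 5 expected cells at d16, 33 were found together more often than expected, with a median ratio of 1.43 and a range of 0.74 to 1.86. Fabp7 and Slc1a3 were both found in 987 d16 cells where 673 were expected (1.47), Rfx4 and Celsr2 in 542 where 295 were expected (1.84), and Fabp7 and Rfx4 in 544 where 308 were expected (1.76). Hes5 was found with Celsr2 in 61 cells where 33.4 were expected (1.83). Of the 6 pairs not above expectation, 5 held Sox3, the lowest with Slc1a3 (21 cells, 28.2 expected, 0.74), and the other was Pax6 with Nes (43 cells, 43.3 expected). Sox3 with Nes was at 1.06. Within the d16 cells of cluster 3, the median over 39 pairs was 1.03, with a range of 0.77 to 1.19, so that inside the cluster the genes were found together about as often as their single frequencies give. Fabp7 and Slc1a3 were there in 788 cells where 765 were expected, and Rfx4 and Celsr2 in 494 where 467 were expected. At d8 the median over 37 pairs was 1.19, from 0.50 to 1.96. The ratio was highest for Pax6 with Celsr2 (26 cells, 13.3 expected) and with Rfx4 (10 cells, 5.10 expected), and Nes with Fabp7 was at 0.98 (440 cells, 450 expected). The cells of a population share 1 library, and these ratios are a description of it.

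**Figure D4:**
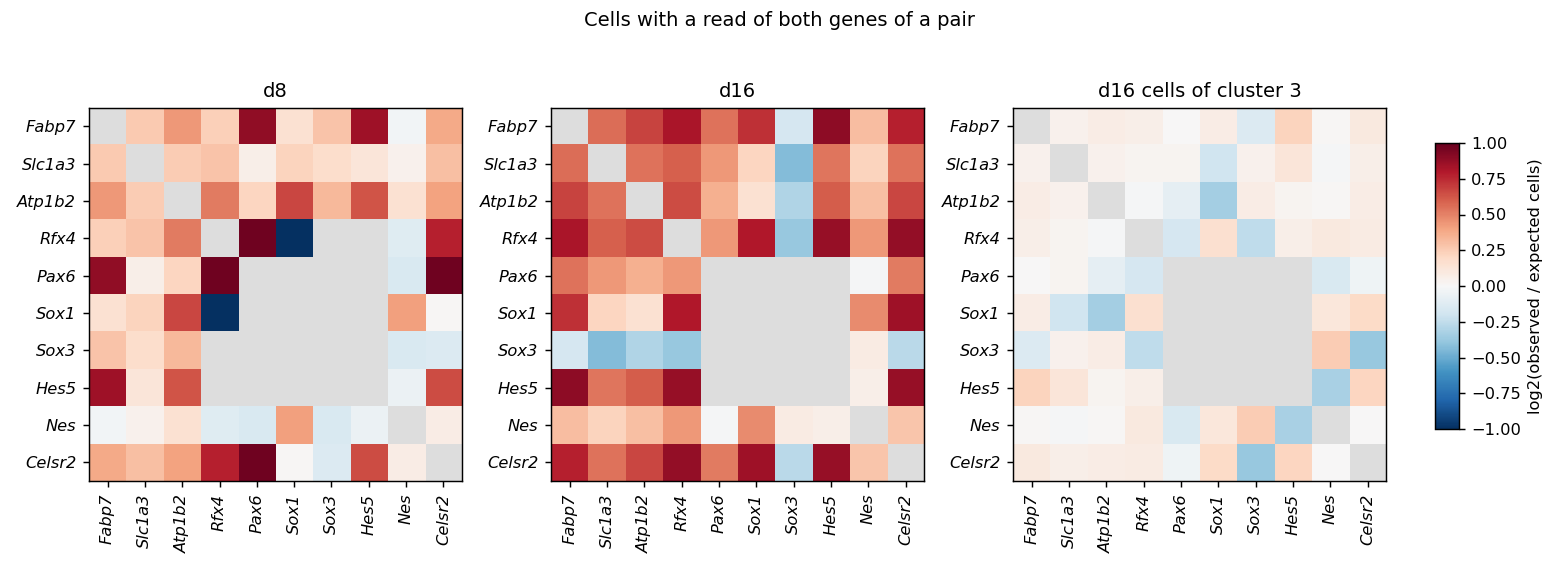
Cells with a read of both genes of a pair, as log2 of the observed over the expected number, at d8, at d16 and in the d16 cells of cluster 3 (red more, blue fewer than expected; grey, fewer than 5 expected cells). Most pairs are red at d16 (median ratio 1.43) and pale within cluster 3 (1.03).

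Further genes were examined in d16 cells with at least 3 members against the d16 cells with fewer (1481 and 2230 cells). Because the members chose the cells, the members themselves are left out here. Of 20 other genes of neural progenitors, 17 reached the level for comparison, and 12 were at least 2-fold higher and 0 lower. Over all genes, 7.31% were higher and 6.38% lower. This list, too, was chosen with earlier results of these data known. The median log2 difference of the 17 was 1.39, against -0.03 over all genes. Ednrb, an endothelin receptor of glial progenitors, was at 202 against 31.7 CPM, Ttyh1 at 173 against 27.1 CPM, Ptprz1, a receptor phosphatase of radial glia, at 51.6 against 9.40 CPM, and Pou3f2 at 50.4 against 9.18 CPM. Prom1 (266 against 56.7 CPM), the Notch effector Hey1 (88.3 against 19.5 CPM), Id4 (191 against 48.5 CPM) and Sox9 (242 against 65.1 CPM) were higher as well. Vim (6170 against 2360 CPM), Sox21 (70.0 against 28.5 CPM) and the RNA-binding gene Msi1 (40.8 against 18.2 CPM) passed 2-fold by less. Pou3f3 passed 2-fold at 8.74 against 2.84 CPM. Sox2, which is shared by pluripotent and neural cells, was at 350 against 400 CPM.

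Genes of later glia and of neurons were divided. Of 6 later glia genes compared, Aqp4 (81.8 against 11.7 CPM), a water channel of astrocytes, Gfap (126 against 20.4 CPM), Aldh1l1 (62.9 against 21.9 CPM) and S100b (6.22 against 1.81 CPM) were higher, and Pdgfra, a receptor of oligodendrocyte precursors and of fibroblasts, was lower (13.4 against 35.4 CPM). Mbp, a myelin gene, was at 16.0 against 17.2 CPM. Of 10 neuron genes compared, 4 were higher, among them Map2 (58.9 against 20 CPM), Gap43 (107 against 48.0 CPM) and Elavl4 (36.1 against 16.2 CPM). Stmn2 was lower (71.4 against 161 CPM). Tubb3 (15.7 against 26.6 CPM) and Dcx (10.3 against 11.4 CPM), which mark young neurons, did not pass 2-fold, and in the neuron-like cluster 13 they reached 701 and 578 CPM. Of 8 regional genes compared out of 17, Otx2 (61.4 against 25.4 CPM), of the forebrain and midbrain, Nkx6-1 (50.6 against 22.4 CPM), of the ventral neural tube, and Pax3 (43.8 against 20.8 CPM), of the dorsal neural tube, were higher, and 0 were lower.

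Lists of other cell types are given beside these. The d16 cells with fewer members included most of the pluripotent cluster 5 and of the fibroblast-like cluster 6. Of the 1156 and 573 thinned d16 cells of these clusters, 40 and 69 had at least 3 members. How far the differences rest on this make-up was not tested. All 8 naive pluripotency genes were at least 2-fold lower in the d16 cells with at least 3 members (summed level 603 against 3445 CPM), 5 of 8 fibroblast genes were lower (1318 against 3079 CPM) and 5 of 7 proliferation genes were lower (764 against 1465 CPM). Of the epithelial genes 1 of 8 was lower, of the 5 macrophage, 4 smooth muscle and 1 neural crest genes compared 0 differed 2-fold, and of 7 primed epiblast genes Fgf15 alone was higher. At d8, 588 cells with at least 3 members were set against 8284 others. Over all genes 0.271% were higher and 0.167% lower there. Of 19 other neural progenitor genes compared, 2 were higher, Pou3f2 (11.9 against 4.55 CPM) and Ttyh1 (32.5 against 14.0 CPM). Gfap (22.9 against 6.86 CPM) and Aqp4 (12.7 against 4.05 CPM) were higher too, Emx2 was lower (10.8 against 23.9 CPM), and no naive pluripotency, fibroblast or proliferation gene passed 2-fold.

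**Figure D5:**
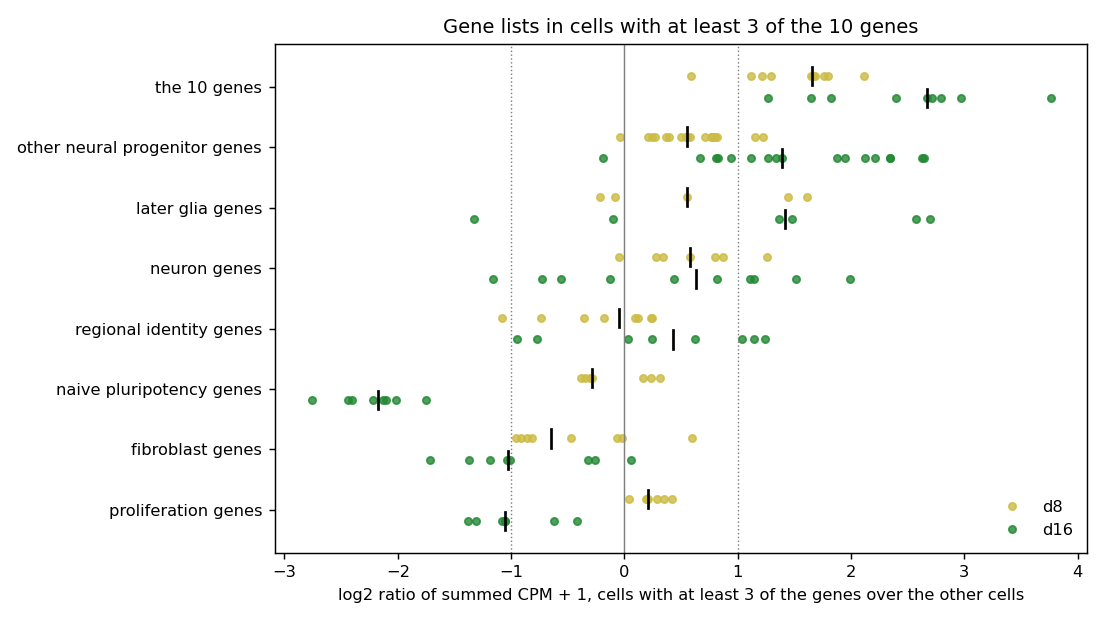
Log2 ratio of summed CPM + 1 between cells with at least 3 of the 10 genes and the other cells of the same population, for each gene that reached 5 CPM (points; d8 yellow, d16 green); black bars are medians and dotted lines mark 2-fold. The top row shows the genes that chose the cells. At d16 the other neural progenitor genes lie to the right (median 1.39) and the naive pluripotency genes to the left (-2.17).

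Outside the lists, the genes whose levels over the 17 clusters of at least 50 cells were most like the mean of the members included Plce1 (Pearson r = 0.95), Btbd17 (0.93), Lrrn2 and Lrp8 (each 0.90), and Phlpp1, Unc5c, Rfx3, Rab36 and Ankrd6 (each 0.89), out of 11817 genes. The clusters share the library and the correlations are a description. Candidates needed at least 20 CPM in at least 1 of the 17 clusters, which cluster 3 alone could supply. High levels of these genes in cluster 3 are therefore partly set by the choice and are no independent support. Lrp8, a receptor for reelin, was at 151 CPM in cluster 3 and at a median of 18.6 CPM in the others. Rfx3, a further gene of the RFX family, was at 96.3 and 15.2 CPM. Unc5c, a netrin receptor, was at 32.7 and 3.87 CPM. Among the members, Celsr2 (0.89), Rfx4 (0.86) and Fabp7 (0.84) were closest to their own mean, and Nes (0.43) and Sox3 (0.23) farthest from it. Each member is part of this mean, which raises its r, so these values are not comparable with those of the other genes.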

How the data were processed

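The deposited table holds raw counts, which are unscaled read numbers. As its methods describe, the authors used cutadapt 2.10 for trimming, Bowtie2 2.3.4.1 for alignment to Ensembl transcripts (GRCm38.p6), summed the reads of each symbol per cell barcode, removed barcodes below the knee plot threshold and removed cells with ambiguous tags as doublets. Molecular identifiers are not described, so a molecule can be counted repeatedly. The paper clustered only the cells that passed a quality check, whereas all 17720 cells of the table were used here. No further doublet caller was run. Doublets within a tag can remain.

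Cells were assigned to a population by the tag that starts the column name, 0 columns lacked a tag and 0 barcodes occurred under more than 1 tag. Clustering was done with Seurat 5.3.0 in R 4.3.3 (2000 variable genes other than the members, 56 components, 50 neighbours, resolution 0.8), which gave 18 clusters. A cluster was named "-like" from at least 3 markers raised 3-fold over the median cluster. Names were rebuilt here and can differ from those of the study. Levels are CPM with exact Poisson intervals. Shares have exact binomial (Clopper-Pearson) intervals. Ratios are log2 of CPM with a pseudocount of 1, compared from 5 CPM and called from 2-fold. Shares and pairs used cells thinned to 5000 reads. Python 3.11.15, NumPy 2.4.6, SciPy 1.17.1 and, for TMM factors as an alternative scaling, edgeR 4.0.16 were used. The ratio and its interval were tested on simulated data. The members and gene lists were chosen with earlier results of these data known. Genes named in the text were all members, the listed genes past 2-fold and at 20 CPM or more or with the 5 largest ratios of their list, and the 10 genes most like the members over clusters, except that some of these genes are not reported here. Sox2, Mbp, Tubb3, Dcx and the genes that lead clusters were named after their values were seen. The tag library was not analysed here.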

Additional observations from a re-analysis of the deposited data

How the results depend on the processing

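No value past 2-fold reversed under the alternatives. The median log2 difference of the members between d16 and d8 (1.92) was 1.34 with a pseudocount of 10 CPM, 2.12 with the mean of CPM per cell, 2.07 with cells in clusters of their own tag and 0.82 without cluster 3. Among cells with more than 2000 and fewer than 8000 genes, this median was 1.91. With a pseudocount of 10 CPM, Pax6 (1.23) and Hes5 (1.28) fell to 0.50 and 0.42, short of 2-fold. Leaving out cluster 3 was chosen after the data were seen. Each member kept its sign under all 6 alternatives that were planned. The share of d8 cells with at least 3 members (6.63%) was 2.29% when thinned to 3000 reads, 19.5% at 10000 reads, 26.7% for at least 2 members, 1.40% for at least 4 and 0.327% with 2 reads for detection. For d16 (39.9%) the same settings gave 30.4%, 49.3%, 56.3%, 26.6% and 20.7%, and 13.9% without cluster 3. The share of these cells in cluster 3 (57.2%) was 25.2% at 10000 reads and 80.1% for at least 4 members, and stayed between 57.1% and 59.0% with resolutions of 0.4 and 1.2 or with the members among the variable genes. No paired analysis was possible because each population was 1 sample without replicates, and no replicate could be left out. Depth limits Sox1, Sox3, Hes5 and Pax6 the most, since few cells had a read of them.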
